A study of Mus musculus with 13 samples.

Results

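The Shh regulatory domain was taken as the stretch of mouse chromosome 5 from Shh (ENSMUSG00000002633.4) to Lmbr1 (ENSMUSG00000010721.15), with 100 kb outside each gene, chr5:28356815-29478390 on mm10 (GRCm38), 1121.6 kb in all, and Rnf32 (ENSMUSG00000029130.12) lies inside it. Its members were chosen by position alone, as the accessible regions whose strongest summit lay in this window. Called regions of the 13 libraries that overlapped were joined into 284051 regions over the genome, and 71 of these were members. Accessible chromatin was mapped by ATAC-seq, in which the Tn5 transposase cuts open DNA, in mouse embryos at E12.5. The tissues were forebrain (FB) and the distal (DFL) and proximal (PFL) parts of the forelimb, and each library was made from 50000 cells of pooled embryos. Wild-type (wt) embryos were compared with embryos named 542, in a design made to ask how a limb enhancer behaves once it is moved to another domain of the HoxD locus. The 542 embryos were homozygous for a single-copy transgene, made of the limb enhancer II1, the HBB promoter and LacZ, which was inserted on chromosome 2 in T-DOM, the domain that flanks HoxD on the telomeric side. They came from 1 founder line, and wt libraries carried no transgene. All 6 combinations of tissue and genotype had 2 libraries each, and an additional wt DFL library came from an earlier sample that the authors processed anew. It entered no main comparison.

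Shh encodes sonic hedgehog, a secreted signal that patterns the limb bud from the zone of polarising activity at its posterior margin and patterns the ventral forebrain and floor plate. Shh is switched on in each tissue by separate enhancers, many of which lie far away in the gene desert between Shh and Rnf32, or inside the introns of Lmbr1. The ZRS, in an intron of Lmbr1, is the limb enhancer of Shh, and single base changes in it are known to cause extra digits, while the brain enhancers SBE1 to SBE4 drive Shh in parts of the brain. Rnf32, a ring finger gene, and Lmbr1, a membrane protein gene, are neighbours, and the ZRS is known to act on Shh and not through Lmbr1.

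Each region is given by its fold, the enrichment over the local background that the peak caller MACS2 reported at the region's strongest summit. A region absent from a library's list was below the caller's threshold in that library, which is not evidence that the site was closed. These are bulk tissues, so fewer open cells and less open chromatin per cell cannot be told apart. The libraries held 85070 to 131691 called regions and, as worked out from the fold, p and q columns, 37.5 to 78.0 M tags (M, mega). The FB libraries held 51.4 to 70.7 M, and 3 of the 4 were deeper than every limb library of the 12, while the 4 limb libraries of 542 held 37.5 to 41.4 M against 44.0 to 54.5 M in the wt limb. Differences of log2 fold were tested with limma over 120009 regions of the genome that were called in at least 4 of 12 libraries, with an uncalled library set to its own lowest called fold. Of the 71 members, 36 passed this filter and 35 did not, and a fold difference for a region uncalled throughout a tissue therefore rests on imputed values.

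The dissections were checked on marker genes. The region at Hoxd13, a gene of the distal limb, had a fold of 8.67 to 9.78 in DFL, 3.395 to 4.97 in PFL and 3.17 to 4.11 in FB. The summed strongest folds of 5 forebrain genes were 34.7 to 40.7 in FB, 22.9 to 29.5 in DFL and 20.7 to 25.9 in PFL. That of 4 limb mesenchyme genes was 32.5 to 34.2 in DFL, 27.7 to 32.8 in PFL and 24.5 to 25.6 in FB. The sum over Meis1 and Meis2, which mark the proximal limb, was 15.2 to 23.2 in DFL and 14.1 to 16.5 in PFL, so these genes were not higher in PFL. Regions at genes of other cell types were called as well: the sum over Krt14 and Trp63 of the surface ectoderm was 18.9 to 20.96 in DFL, 11.8 to 17.8 in PFL and 8.92 to 12.7 in FB, with Krt14 uncalled in all 4 FB libraries. Blood genes (Gata1, Klf1 and Tal1) summed to 16.8 to 23.4, 19.0 to 22.8 and 20.2 to 30.5 in DFL, PFL and FB, with Gata1 uncalled in every limb library. Endothelial Cdh5 and Tie1 summed to 2.58 to 6.42, 3.38 to 4.75 and 0 to 4.68, and muscle Myod1 and Myf5 to 4.45 to 11.8, 6.78 to 8.66 and 4.15 to 7.16, with Myf5 uncalled in FB. The part of these cells in the differences between tissues was not tested.

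**Figure D1:**
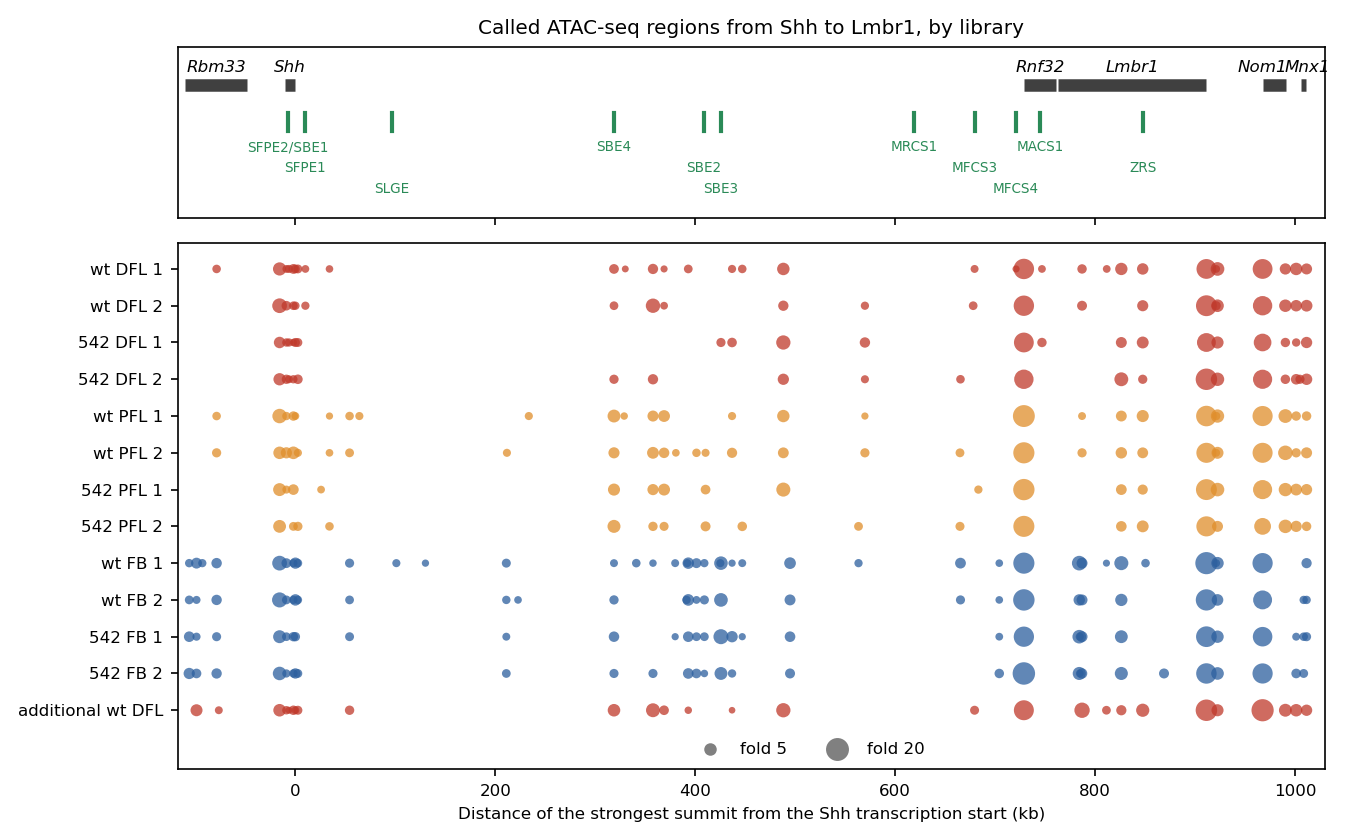
Called ATAC-seq regions of the 13 libraries by distance in kb from the Shh transcription start, with genes as bars and the enhancers listed by RefSeq as green ticks above, and circle area showing the fold. The starts of Rnf32, Lmbr1 and Nom1 carry the largest circles in every row, the ZRS at 847.9 kb has a circle in the 8 limb libraries and the additional one but in no FB library, and FB has the only circles at 494.7 and 784.0 kb.

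Sequences are shown for the elements that separated the tissues, read from the GRCm38 genome, plus strand, 5′ to 3′. The first 3 are from the ZRS. The first spans chr5:29314673-29314872, and its capitals mark the 73 bases that held the strongest summit of all limb libraries. The second spans chr5:29314980-29315130, where a second summit was called in some libraries, with capitals for ETS site 3 and Hoxsite 4 of the RefSeq annotation. The third spans chr5:29315230-29315327, with capitals for the bases of Hoxsites 3, 2 and 1 that RefSeq lists as mutated in functional assays.
ZRS summit: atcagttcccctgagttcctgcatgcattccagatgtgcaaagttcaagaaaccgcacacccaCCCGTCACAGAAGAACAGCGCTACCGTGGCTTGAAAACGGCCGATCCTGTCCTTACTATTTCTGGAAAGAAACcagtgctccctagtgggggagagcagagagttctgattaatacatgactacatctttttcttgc
ZRS second summit: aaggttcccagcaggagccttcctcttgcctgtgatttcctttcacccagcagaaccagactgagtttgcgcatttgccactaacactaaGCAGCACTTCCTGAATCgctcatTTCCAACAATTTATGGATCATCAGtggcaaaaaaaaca
ZRS Hox sites: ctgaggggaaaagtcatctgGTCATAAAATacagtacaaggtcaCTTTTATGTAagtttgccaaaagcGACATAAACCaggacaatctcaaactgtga

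The next 2 are where the strongest summits of limb and of forebrain lay within the enhancer SBE4. They span all strongest summits of the limb libraries, chr5:28785738-28785877, and all those of FB, chr5:28786027-28786289, with capitals for matches to the searched motifs GGAAGT and TAATTA.
SBE4 limb stretch: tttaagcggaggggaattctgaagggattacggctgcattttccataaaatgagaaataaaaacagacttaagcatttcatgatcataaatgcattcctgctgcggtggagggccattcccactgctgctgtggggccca
SBE4 forebrain stretch: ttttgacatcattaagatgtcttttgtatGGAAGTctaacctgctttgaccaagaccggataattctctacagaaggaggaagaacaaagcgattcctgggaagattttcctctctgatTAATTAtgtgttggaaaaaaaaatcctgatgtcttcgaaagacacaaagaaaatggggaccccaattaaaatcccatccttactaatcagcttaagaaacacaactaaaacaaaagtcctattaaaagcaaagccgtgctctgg

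The last 4 are from elements called in FB or in limb only or nearly so. They are the SBE3 at chr5:28892759-28892990 with a RefSeq protein binding site in capitals, the SBE2 at chr5:28876393-28876517 with T-box site 1 and the SoxB1 site in capitals, a forebrain region in intron 15 of Lmbr1 at chr5:29251228-29251377 and a limb region of the gene desert at chr5:28955161-28955310. Capitals in these final 2 mark the stretch that held the strongest summit of each calling library.
SBE3: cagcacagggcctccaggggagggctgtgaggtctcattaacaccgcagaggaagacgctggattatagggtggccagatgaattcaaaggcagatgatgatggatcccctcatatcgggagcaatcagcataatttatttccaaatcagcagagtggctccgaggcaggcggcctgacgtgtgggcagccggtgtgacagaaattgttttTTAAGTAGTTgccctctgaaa
SBE2: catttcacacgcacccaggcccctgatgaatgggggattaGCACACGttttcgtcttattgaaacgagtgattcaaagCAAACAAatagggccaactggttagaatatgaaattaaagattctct
Lmbr1 intron 15 forebrain region: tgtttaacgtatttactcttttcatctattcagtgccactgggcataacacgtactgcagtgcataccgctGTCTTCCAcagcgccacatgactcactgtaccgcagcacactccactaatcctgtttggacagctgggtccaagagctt
Desert limb region: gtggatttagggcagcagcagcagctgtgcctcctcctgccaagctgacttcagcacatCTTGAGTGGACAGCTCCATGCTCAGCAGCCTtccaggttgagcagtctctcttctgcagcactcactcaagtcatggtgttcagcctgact

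The ZRS was accessible in both parts of the forelimb and was not called in forebrain. The joined region, chr5:29313886-29315557, lay in intron 5 of Lmbr1, 847.5 kb from the Shh start. Its fold was 6.06 and 5.71 in wt DFL, 6.54 and 3.95 in 542 DFL, 6.76 and 5.43 in wt PFL, and 4.75 and 6.51 in 542 PFL. All 8 limb libraries called it, none of the 4 FB libraries did, and the DFL and PFL values overlapped. The mean fold was 5.57 ± 1.13 in DFL and 5.86 ± 0.939 in PFL (SD, n = 4 each). These values rested on 23 to 48 tags at the summit in the limb libraries, and the region stood between the percentiles 38.5 and 70.6 of its own library's regions. In the additional wt DFL library the fold was 8.03, from 74 tags.

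Being called in 8 of 8 limb and 0 of 4 FB libraries gave p = 0.00202 in a two-sided Fisher's exact test, and p = 0.0197 once adjusted over all called regions. The fitted log2 difference of FB from limb was -2.16, and -2.67 to -1.69 under 20 alternatives. It is given as a description only, since all 4 FB values were imputed and the region entered the fit through limb calls alone, and the same holds below for each member uncalled throughout limb or FB. Between DFL and PFL the difference was -0.15 (SE 0.20, limma adjusted p = 0.667). Between 542 and wt it was -0.01 (SE 0.16, limma adjusted p = 0.976). Calls in 4 of 4 DFL against 4 of 8 other libraries gave p = 0.208 (two-sided Fisher's exact test). In the fold of the ZRS no difference between DFL and PFL, or between genotypes, was larger than the spread between libraries. In the 50000 strongest regions of each library it was present in 6 of the 8 limb lists, 3 of each tissue, and the test against FB then gave p = 0.0606 (two-sided Fisher's exact test).

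Within the ZRS the strongest summit lay beside the conserved core rather than in it. RefSeq places the highly conserved core at chr5:29314896-29315667, 772 bp. The strongest summits of the 8 limb libraries fell within 73 bp, from 29314736 to 29314808, and together with the additional library they lay 88 to 160 bp before the core. Weaker summits inside the core were called in wt DFL at 29315023 with fold 4.68 in replicate 1, and at 29315037 with fold 4.52 and 29315289 with fold 2.97 in replicate 2. In 542 DFL replicate 1 there was one at 29315007 with fold 3.06. In PFL they lay at 29315034 with fold 2.86 and 29315381 with fold 3.17 in wt replicate 2, and at 29315121 with fold 2.61 in 542 replicate 2. Weaker summits before the strongest were mostly of DFL. In wt DFL they lay at 29314047 (fold 2.35) and 29314450 (2.72) in replicate 1, and 29314077 (3.125) and 29314427 (3.87) in replicate 2. In 542 DFL they lay at 29314050 (4.39) in replicate 1 and 29314427 (3.19) in replicate 2. In PFL only 542 replicate 1 had such a summit, at 29314490 (2.97). The called stretch covered 85.8% and 74.1% of the core in wt DFL, 29.3% and 6.61% in 542 DFL, 20.98% and 83.4% in wt PFL, and 14.5% and 56.2% in 542 PFL. Both tissues held libraries with high and with low coverage. In DFL both wt values lay above both 542 values, while in PFL the genotypes overlapped. The 542 limb libraries were also shallower, at 37.5 to 41.4 M tags against 44.0 to 54.5 M in the wt limb. The part of depth in this coverage was not tested.

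The binding sites that RefSeq lists in the core were reached by these calls to different degrees. ETV4 site B, a site for an ETS factor at the edge of the core, was inside a called region in 4 of 4 DFL and 4 of 4 PFL libraries. ETS site 3 and Hoxsite 4, capitals in the second ZRS sequence, were inside one in 3 DFL and 2 PFL libraries. Hoxsites 3, 2 and 1, the capitals of the third sequence, were inside one in 2 DFL and 2 PFL libraries, as was the fragment that binds HAND2, a factor needed for Shh in the limb. ETS site 1 was covered in 2 DFL and 1 PFL libraries. The 2 DFL libraries that reached Hoxsites 3, 2 and 1, the HAND2 fragment and ETS site 1 were those of wt. No FB library covered any of these sites.

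**Figure D2:**
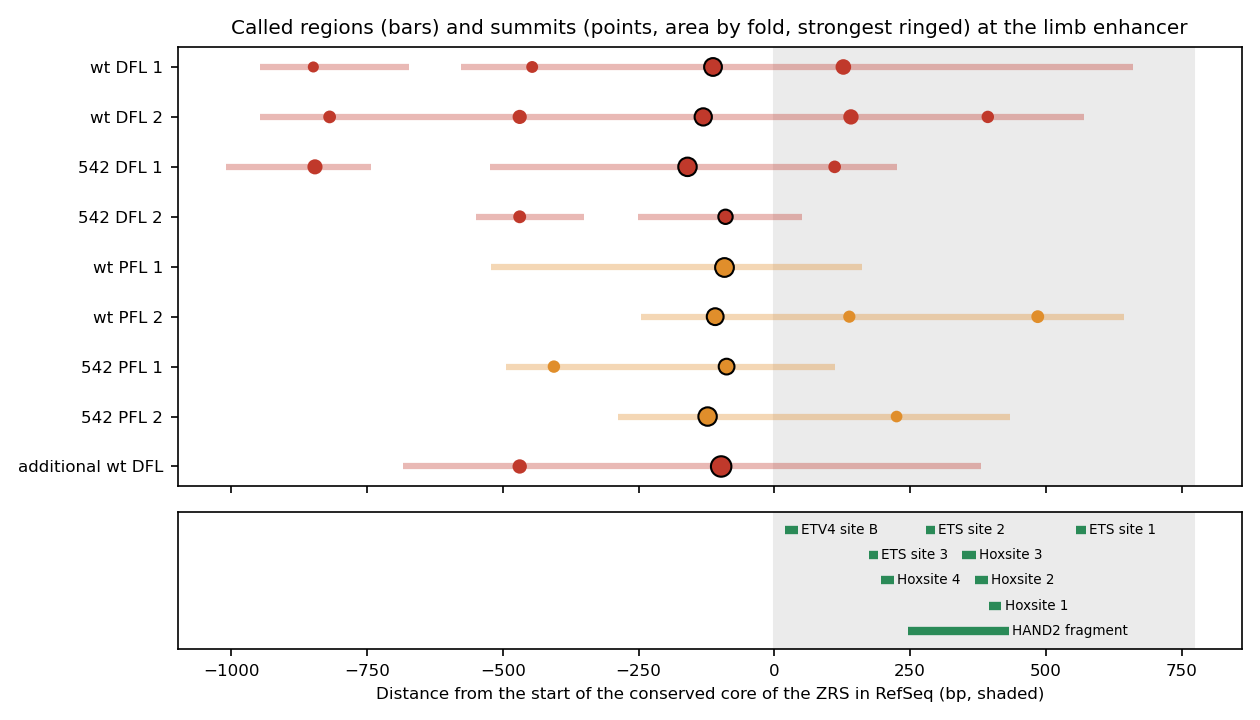
Called regions (bars) and summits (points, area by fold, the strongest ringed) at the ZRS for the 8 limb libraries and the additional one, by distance in bp from the start of the conserved core, which is shaded, with RefSeq binding sites below. The ringed summits line up 88 to 160 bp before the core, and bars reach far into the core in only some libraries of either limb tissue.

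Intron 5 of Lmbr1 held 2 more members, and neither shared the pattern of the ZRS. At 826.1 kb from the Shh start (chr5:29293236-29293548) the fold was 7.03 in wt DFL replicate 1, uncalled in replicate 2, 5.53 and 8.87 in 542 DFL, 5.19 to 6.03 in the PFL libraries and 6.95 to 9.11 in the FB libraries. It was called in 11 of 12 libraries, and FB and limb did not differ in the fit (log2 difference 0.42, SE 0.34, limma adjusted p = 0.285). The third region, at 850.3 kb, was called once, in wt FB replicate 1 with fold 3.39.

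At Shh itself, the region over the transcription start was stronger in forebrain. The region chr5:28466695-28467276 overlaps the first exon of Shh and had a fold of 5.85 and 6.06 in wt FB and 4.02 and 4.97 in 542 FB. In the limb it was called in 3 of 4 DFL libraries, with fold 3.46, 3.26 and 3.79, and in 1 of 4 PFL libraries, with fold 2.81. Every FB value was above every limb value. The log2 fold was higher in FB by 1.01 (SE 0.25, limma adjusted p = 0.00577), with 4 of the 8 limb libraries imputed, and DFL and PFL differed by 0.58 (SE 0.29, adjusted p = 0.21). The gene Gm26894 and the antisense transcript 9530036O11Rik overlap the same region, and ATAC-seq cuts carry no strand that could part them.

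Of 3 other regions in the Shh gene, 2 were called in all 3 tissues and 1 in DFL only. A region in intron 1 (chr5:28464411-28465555) was called in 12 of 12 libraries, with fold 2.44 to 4.47 in DFL, 3.61 to 7.37 in PFL and 3.07 to 4.05 in FB. DFL lay below PFL by -0.63 on the log2 scale, which did not pass (SE 0.23, limma adjusted p = 0.0749). A wide region at the 3′ end of the gene (chr5:28457857-28459975) had fold 2.87 to 4.29 in DFL, 2.997 to 5.80 in the 3 PFL libraries that called it and 3.15 to 4.45 in FB, and the tissues overlapped. It touches SFPE2/SBE1, the floor plate and midbrain enhancer of intron 2, whose annotated stretch was overlapped by calls of 1 DFL, 2 PFL and 4 FB libraries. A further region of intron 2 was called in 3 DFL libraries, with fold 2.998, 3.15 and 2.92, and otherwise in the additional DFL library with fold 2.26.

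The SBE4, an enhancer of the medial ganglionic eminence according to RefSeq, was a brain enhancer whose fold was highest in the proximal limb. The region chr5:28785406-28786448, 318.6 kb from the Shh start, had fold 4.39 and 3.50 in wt DFL, no call and 3.97 in 542 DFL, 7.64 and 5.73 in wt PFL, 6.73 and 7.79 in 542 PFL, 2.92 and 3.97 in wt FB, and 5.07 and 3.85 in 542 FB. All PFL values were above all DFL and FB values of the 12 libraries. The additional wt DFL library, at 7.28, lay within the PFL range. DFL was lower than PFL by -1.20 on the log2 scale (SE 0.28, limma adjusted p = 0.0126), and this held under 20 alternatives, with values from -1.504 to -0.88 and adjusted p up to 0.0496. Within genotypes it was -0.84 in wt (SE 0.40, adjusted p = 0.238) and -1.56 in 542 (SE 0.40, adjusted p = 0.0228). FB and limb as a whole differed by -0.45 (SE 0.24, limma adjusted p = 0.124).

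The strongest summits of limb and forebrain lay in different parts of the SBE4. The strongest summits of the 7 limb libraries that called it fell between 28785738 and 28785877, and those of the 4 FB libraries between 28786027 and 28786289. These stretches, printed above, were separated by 150 bp and did not overlap. Weaker summits of FB did lie near or before the limb stretch: at 28785698 and 28785933 in wt FB replicate 1, each with fold 2.69 against 2.92 at its strongest, at 28785688 in replicate 2 with fold 3.55 against 3.97, and at 28785638 and 28785981 in 542 FB replicate 1 with fold 3.04 and 3.67 against 5.07. The forebrain stretch held 1 match each to GGAAGT, the core letters of an ETS motif, and TAATTA, a homeobox motif, and the limb stretch held none of the 5 motifs searched.

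**Figure D3:**
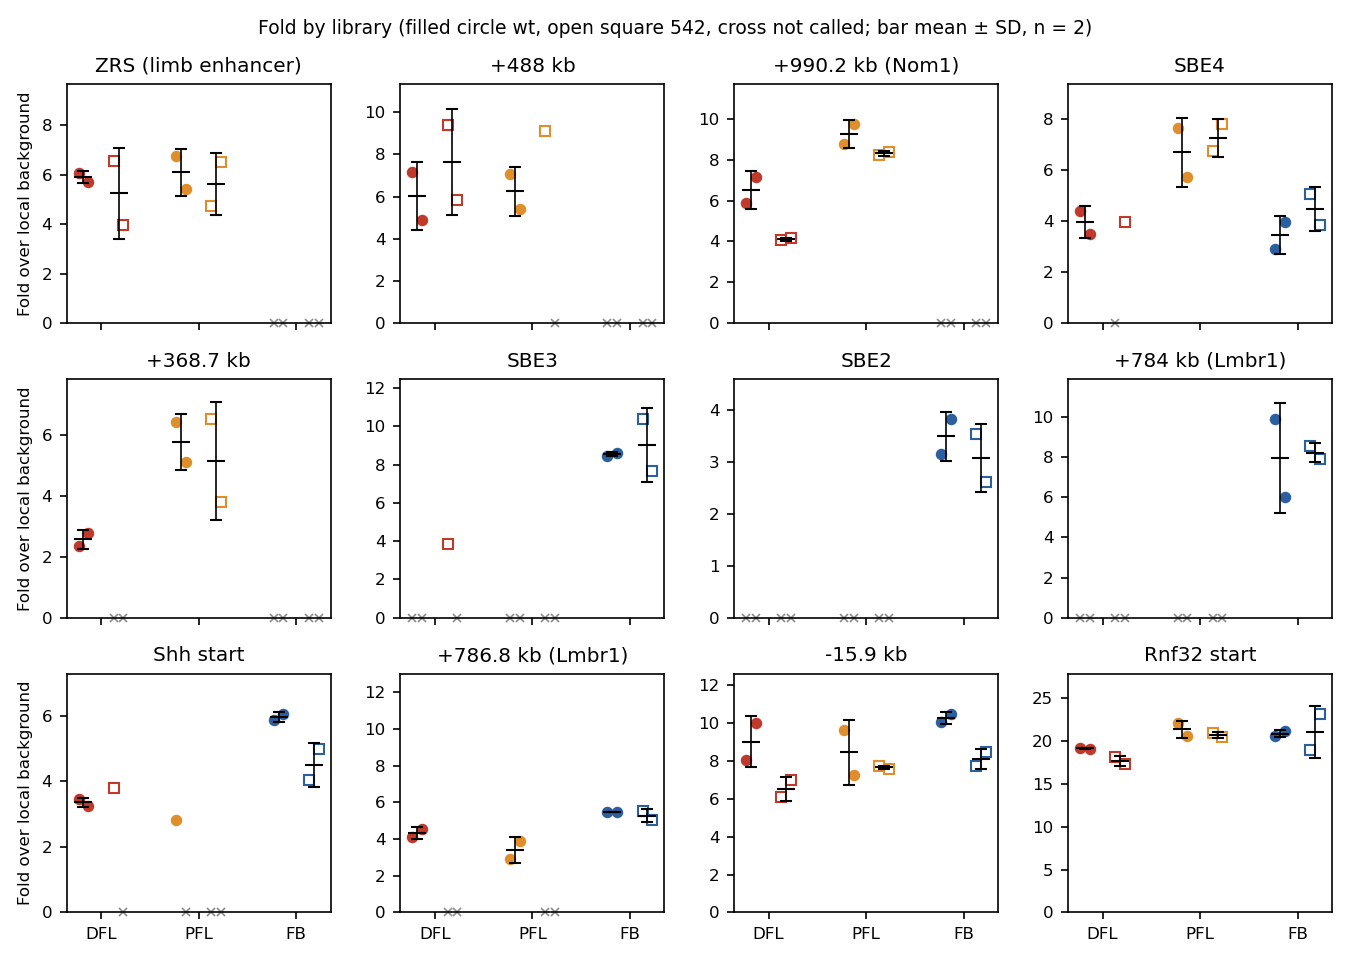
Fold over local background in each of the 12 libraries for 12 named members, by tissue, with filled circles for wt, open squares for 542, crosses at 0 for uncalled libraries and bars for the mean ± SD of the 2 libraries of a group. The ZRS and the region at 990.2 kb have limb values only, the region at 784.0 kb has FB values only, and the PFL values of the SBE4, 5.73 to 7.79, lie above its DFL and FB values.

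The SBE3 and SBE2, both enhancers of the ventral diencephalon, were forebrain regions here. The SBE3 (chr5:28892437-28893288) had fold 8.47 and 8.61 in wt FB and 10.4 and 7.65 in 542 FB, a mean of 8.78 ± 1.15 (SD, n = 4). Its only limb call was 3.87 in 542 DFL replicate 1, and the strongest FB summits fell between 28892760 and 28892859. Its fitted log2 difference was 2.17, with 7 of the 8 limb values imputed. By calls in the lists of 50000 strongest regions it was in 4 of 4 FB and 0 of 8 limb lists (two-sided Fisher's exact test, adjusted p = 0.0148, the value of every region with this pattern). The SBE2 (chr5:28875748-28876693) was weaker, with fold 3.15, 3.83, 3.55 and 2.62 in the FB libraries and no limb call. Its mean of 3.29 ± 0.53 (SD, n = 4) put it in none of the lists of 50000 strongest regions. A separate region near the SBE2, at 410.2 kb (chr5:28877293-28877611), was called in 3 PFL libraries only, with fold 3.02, 4.36 and 4.59.

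Of the 11 enhancers that RefSeq lists in the window, 8 overlapped a member. The floor plate enhancer SFPE1 was called in both wt DFL libraries with fold 2.78 and 3.15. MFCS3, an enhancer of brain and motor neurons, was called in wt DFL replicate 1 with fold 2.93, and MFCS4, an enhancer of the pharynx, in the same library with fold 2.34. The lung and gut enhancer SLGE, the oral enhancer MRCS1 and the gut tube enhancer MACS1 had no region in any of the 13 libraries.

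Among the 36 members tested, 13 were higher in FB than in limb, 36.1% against 28.7% of all regions tested, and 10 were lower, 27.8% against 44.3% (limma, adjusted p under 0.05). The median difference was -0.05 in the members and -0.16 in all tested regions on the log2 scale. Of the 13 that were higher in FB, 7 had no limb call, and of the 10 that were lower, 6 had no FB call, so that these 13 rest on imputed values in one tissue and, having passed the filter through the other tissue alone, had to differ. Without each FB library in turn, members called in FB alone fell under the filter and the count dropped to between 14 and 17 in both directions together.

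The strongest of the regions called only or nearly only in forebrain lay in the gene desert, in Lmbr1 and beyond Shh. The region at 784.0 kb, in intron 15 of Lmbr1 (chr5:29250803-29251475), had fold 9.90 and 6.01 in wt FB and 8.55 and 7.89 in 542 FB, and no call in limb. Its 4 strongest summits fell within 8 bp, and the mean was 8.09 ± 1.62 (SD, n = 4). In the desert, the region at 494.7 kb (chr5:28961707-28962258) had fold 6.31, 5.53, 5.19 and 4.62 in the FB libraries and none in limb. The region at 392.9 kb (chr5:28859531-28860445) had fold 6.07, 6.27, 5.19 and 5.23 in FB and 1 limb call of 3.52, in wt DFL replicate 1. The regions at 784.0 and 494.7 kb had no limb value to compare, and the limb call at 392.9 kb lay below all FB values there.

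Weaker forebrain regions lay on both sides. At 210.9 kb (chr5:28677992-28678347) the FB folds were 3.74, 3.26, 2.91 and 3.54, and at 704.0 kb (chr5:29171163-29171583) they were 2.69, 2.70, 2.79 and 4.15. Beyond the 3′ end of Shh, inside Rbm33, the region 106.3 kb from the Shh start (chr5:28360746-28361230) had 3.27 and 3.55 in wt FB and 5.19 and 5.85 in 542 FB. The region over an exon of Rbm33, 99.0 kb away (chr5:28368065-28368485), had 5.49, 2.98, 3.04 and 4.31 in FB. None of the 8 limb libraries called these 4, but the additional wt DFL library called the last with fold 6.64, above all FB values.

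Limb regions that resembled the ZRS were chosen by the highest Pearson correlation of centred log2 fold over the 12 libraries, in which uncalled libraries share low imputed values. The nearest was at 990.2 kb, over the non-coding end of the last exon of Nom1 (chr5:29456784-29457730), with r = 0.95. Its fold was 5.86 and 7.18 in wt DFL, 4.06 and 4.15 in 542 DFL, 8.76 and 9.74 in wt PFL, and 8.22 and 8.39 in 542 PFL, with no FB call. All PFL values exceeded all DFL values, unlike at the ZRS. The log2 difference of DFL from PFL was -0.83 (SE 0.13, limma adjusted p = 0.00129). Within wt the DFL difference was -0.59 (SE 0.18, limma adjusted p = 0.0635) and within 542 it was -1.07 (SE 0.18, adjusted p = 0.0031). After the ZRS it was the only other member called in 8 of 8 limb and 0 of 4 FB libraries, 2 of 70 members or 2.86% against 3.82% of all regions.

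The desert region at 488.0 kb (chr5:28955063-28955419) followed with r = 0.81. Its fold was 7.18 and 4.90 in wt DFL, 9.40 and 5.85 in 542 DFL, 7.08 and 5.43 in wt PFL and 9.11 in 542 PFL replicate 1, and it was uncalled in 542 PFL replicate 2 and in FB. DFL and PFL overlapped, and the strongest summits of the 7 libraries fell within 31 bp. The region at 1001.0 kb (r = 0.77) had fold 3.24 to 7.14 in DFL and 3.98 to 6.42 in PFL, and in FB it was called in 542 alone, with 2.91 and 4.31. As likeness to the ZRS chose these 3, their difference between FB and limb is given no test.

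Between the limb tissues, 4 of the 36 tested members changed, 11.1% against 24.9% of all tested regions that changed in either direction (limma, adjusted p under 0.05). All 4 were lower in DFL, against 12.4% of all tested regions. At an unadjusted p under 0.05, 6 were lower and 0 higher, 16.7% and 0% against 17.7% and 16.7% of all tested regions. Within wt alone 2 members were lower and 0 higher in DFL, against 7.04% and 7.56% of all regions, and within 542 alone 4 and 0, against 9.64% and 10.1%. Unadjusted, 5 were lower and 1 higher in each genotype, 13.9% and 2.78%, against 14.5% for either direction of all regions within 542 and 14992 lower and 15031 higher of the 120009 within wt. No member was called in all 4 libraries of DFL alone or of PFL alone, 0 of 70 each against 1.39% and 1.24% of all regions. Besides the SBE4 and the region of Nom1, the clearest was the desert region at 368.7 kb (chr5:28835718-28836407). Its fold was 2.34 and 2.80 in wt DFL, uncalled in 542 DFL, 6.43 and 5.13 in wt PFL, and 6.53 and 3.79 in 542 PFL, with no FB call. DFL and PFL did not overlap, and the difference was -1.48 (SE 0.17, limma adjusted p = 0.000204), with both 542 DFL values imputed. Within wt it was -1.25 (limma adjusted p = 0.00745). Within 542 it was -1.72, given as a description only, since its DFL side was imputed throughout. The additional wt DFL library gave 4.28, within the PFL range. A neighbour at 357.6 kb was called in 3 of 4 DFL libraries, with 4.89, 9.51 and 4.91, and in 4 of 4 PFL libraries, with 4.03 to 6.46. It overlapped between DFL and PFL. In FB it was called only in wt replicate 1, with 2.57, and in 542 replicate 2, with 3.85. The fit placed FB lower (-1.39, SE 0.38, limma adjusted p = 0.00823), with the uncalled FB and DFL libraries imputed.

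**Figure D4:**
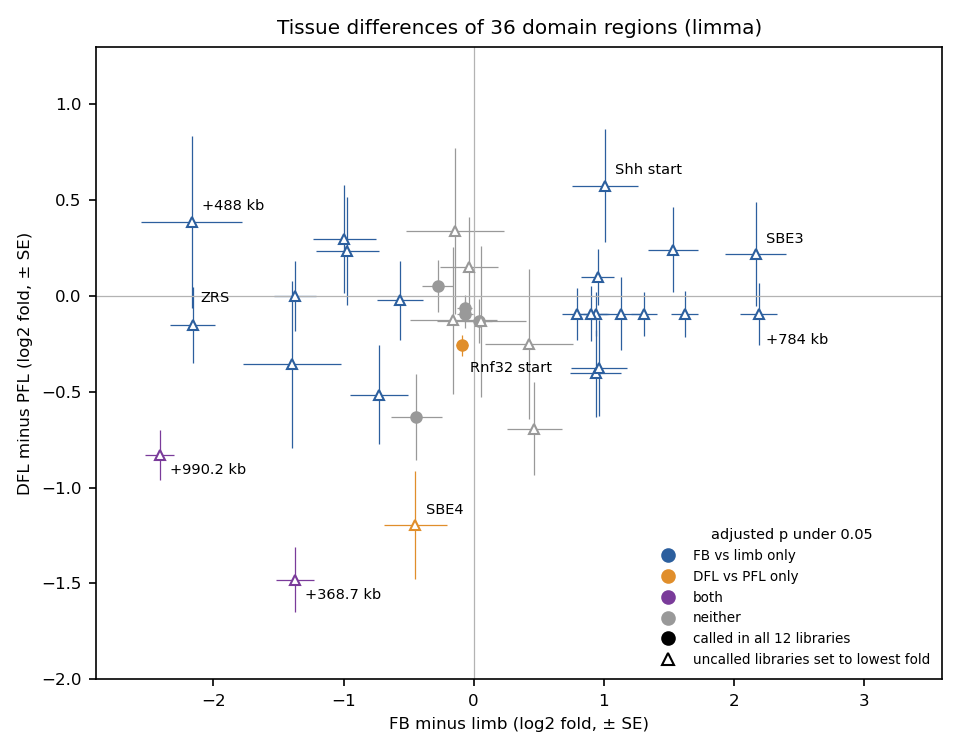
Differences of log2 fold ± SE for the 36 tested members, FB minus limb on the horizontal and DFL minus PFL on the vertical axis, coloured by which limma comparison had adjusted p under 0.05, with circles for members called in all 12 libraries and triangles for those with imputed values. The ZRS and the region at 488.0 kb lie far to the left and near 0 on the vertical axis, while the SBE4, at -1.20, and the region at 368.7 kb, at -1.48, lie lowest.

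The starts of the other genes were open in all tissues. The start of Rnf32 (chr5:29195290-29196557) had fold 17.3 to 19.2 in DFL, 20.4 to 22.1 in PFL and 18.9 to 23.2 in FB. Its DFL values lay below all PFL values, 18.4 ± 0.902 against 21.02 ± 0.75 (SD, n = 4 each), a log2 difference of -0.26 (SE 0.06, limma adjusted p = 0.00882). The start of Lmbr1 (chr5:29377805-29379021) had fold 16.3 to 21.2 in DFL, 18.6 to 20.1 in PFL and 19.2 to 22.6 in FB, with overlap among all 3 (FB against limb -0.07, SE 0.06, limma adjusted p = 0.363). The start of Nom1, which encodes a nucleolar protein, ranged from 12.99 to 18.8 over the 12 libraries. The start of Mnx1, a motor neuron homeobox gene at the edge of the window, was lower in FB: 5.62 to 6.37 in DFL, 4.12 to 5.78 in PFL, 4.82, 3.26 and 3.80 in FB and uncalled in 542 FB replicate 2 (-0.97, SE 0.24, limma adjusted p = 0.00553).

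In all, 6 members were called in 12 of 12 libraries, 8.57% against 10.8% of all regions: the starts of Rnf32, Lmbr1 and Nom1, intron 1 of Shh, and 2 others. One lay 15.9 kb from the Shh start, beyond the 3′ end of the gene (chr5:28451136-28451677), with fold 6.08 to 9.98 in DFL, 7.24 to 9.65 in PFL and 7.72 to 10.5 in FB. The other, at 922.3 kb (chr5:29388999-29389933), over an exon of the non-coding 4632411P08Rik, had 6.82 to 8.64, 5.59 to 8.51 and 6.24 to 7.39. At the other end, 24 members were called in 1 of 12 libraries, 34.3% against 30.4% of all regions. Of these, 20 came from wt and 4 from 542, where wt held 58.3% and 542 41.7% of all regions called in 1 library. Wt FB replicate 1, the deepest of the 12 libraries, gave 8 of the 24, and 12.0% of all such regions. The part of depth in these calls was not tested.

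Counting the domain as a whole, FB called more of its regions than limb. Per 10000 called regions of the library, 3.46 ± 0.378 lay in the domain in FB (SD, n = 4) and 2.41 ± 0.330 in limb (n = 8). The 4 FB values, 3.14 to 4.004, were all above the limb values, 2.01 to 2.96. A two-sided exact permutation test over libraries gave p = 0.00202, the smallest that 495 assignments allow. The difference of 1.05 became 0.525 among the 50000 strongest regions (p = 0.0768), 0.399 at a fold of at least 5 (p = 0.222) and 0.455 at −log10 q of at least 10 (p = 0.0929, exact permutation tests), and no longer passed in these lists of stronger regions. FB libraries were mostly deeper, and at like depth 542 FB replicate 2 called 32 domain regions of 94036 at 51.4 M tags, wt PFL replicate 2 called 30 of 110873 at 52.7 M and wt DFL replicate 1 called 35 of 118297 at 54.5 M.

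By position, the gene desert of 728.7 kb between Shh and Rnf32 held 42 of the 71 members. A library called 9 ± 3.37 regions there in DFL, 11.3 ± 2.99 in PFL and 16.3 ± 4.57 in FB (SD, n = 4 each). In the 100 kb beyond Shh it called 1.25 ± 0.50 in DFL, 1.5 ± 0.577 in PFL and 4.25 ± 0.50 in FB, and in the 100 kb beyond Lmbr1 it called 7 ± 1.41, 5.75 ± 0.50 and 5.25 ± 0.50. Of the 70 members called in the 12 libraries, 37 had a call in some DFL library, 37 in some PFL library and 46 in some FB library, 52.9%, 52.9% and 65.7% against 58.3%, 55.8% and 53.0% of all regions. Called in that tissue alone were 9, 9 and 21, 12.9%, 12.9% and 30% against 15.9%, 15.1% and 23.7%. In all 4 FB libraries and no limb library, 7 of 70 members were called, 10.0% against 6.45% of all regions. Among the 50000 strongest regions of each library it was 5 of 29, 17.2% against 8.81%. Every region with this pattern has the same adjusted p = 0.0148 (two-sided Fisher's exact test), so the p adds nothing to the calls that chose the 5. Those 5 were the Shh start, the SBE3 and the regions at 392.9, 784.0 and 786.8 kb. The additional wt DFL library, outside these lists, called the region at 786.8 kb with fold 10.8, above all its FB values. In all limb and no FB lists were 0 of 29, against 4.83%, and another 5 of 29 were in all 12 lists, 17.2% against 17.5%.

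DFL and PFL called the domain alike by number. The share was 2.4 ± 0.458 per 10000 in DFL and 2.41 ± 0.212 in PFL (SD, n = 4 each), a difference of -0.0119 (p = 0.971, two-sided exact permutation test, smallest possible 0.0286). Among regions with a fold of at least 5 it was 1.95 ± 0.153 in DFL and 2.89 ± 0.303 in PFL, without overlap (p = 0.0286, exact). The SBE4 was the 1 member of 18 present in all 4 PFL and no DFL lists of 50000, against 2.61% of all regions, and 0 showed the reverse, against 3.28%.

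**Figure D5:**
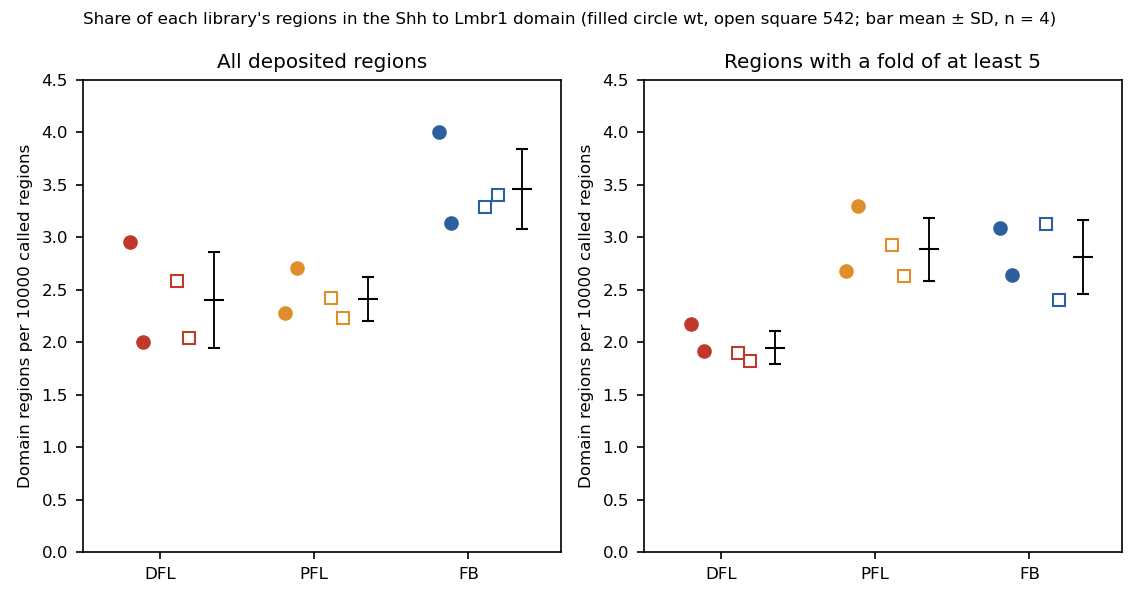
Domain regions per 10000 called regions of each library, by tissue, for all deposited regions (left) and for those with a fold of at least 5 (right), with filled circles for wt, open squares for 542 and bars for the mean ± SD (n = 4). FB lies above both limb tissues on the left, and on the right DFL, at 1.95 ± 0.153, lies below PFL, at 2.89 ± 0.303.

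Between the genotypes, which differ by the transgene on chromosome 2, 1 member of the domain changed. The share was 2.66 ± 0.561 per 10000 in 542 and 2.85 ± 0.704 in wt (SD, n = 6 each), a difference of -0.185 (p = 0.389, two-sided exact permutation with genotypes permuted within tissues). By Fisher's exact test on calls in the lists of 50000, 0 of 29 members passed in either direction, against 0% of all regions, and 0 had an unadjusted p under 0.05 (1 by all called regions). Of the 36 tested members, 0 were higher in 542, against 0.686% of all regions, and 1 was lower, 2.78% against 1.2% (limma, adjusted p under 0.05). At an unadjusted p under 0.05 these were 2 and 5, 5.56% and 13.9% against 9.16% and 7.39% of all regions. Within DFL 0 members were higher and 1 lower in 542, against 0.797% and 1.91% of all regions, within PFL 0 and 1, against 0.547% and 1.52%, and within FB 0 and 0, against 0.234% and 0.192% (limma). Unadjusted, these were 1 and 5 within DFL, against 5.74% and 7.82% of all regions, 1 and 6 within PFL, against 5.63% and 7.55%, and 3 and 0 within FB, against 4.12% and 3.59%. The interaction of genotype and tissue passed for 0 of 36 members, against 0.578% of all regions, with 5 at an unadjusted p under 0.05, 13.9% against 12.4% (limma).

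The 1 member that was lower in 542 lay in Lmbr1, 786.8 kb from the Shh start (chr5:29253451-29254369), over a coding exon. Its fold was 4.10 and 4.55 in wt DFL, 2.90 and 3.92 in wt PFL, 5.50 and 5.50 in wt FB, and 5.53 and 5.04 in 542 FB. The additional wt DFL library gave 10.8, from 104 tags, above all FB values. None of the 4 limb libraries of 542 called the region, so wt and 542 were apart in limb and overlapped in FB. The difference was -0.80 (SE 0.12, limma adjusted p = 0.0157), within DFL -1.37 (adjusted p = 0.013), within PFL -1.02 (adjusted p = 0.0445) and within FB -0.00 (adjusted p = 0.998), and the interaction did not pass (adjusted p = 0.11). The 4 limb values of 542 were imputed, the wt limb calls rested on 17 to 27 tags, and the 542 limb libraries were the shallowest. Leaving out any 1 of the 4 FB libraries, adding the additional library or scaling by tags per M ended the call, with adjusted p up to 0.221. With tags per M no member was lower in 542 and 1 was higher, the region 106.3 kb from the Shh start beyond its 3′ end (0.47, SE 0.10, limma adjusted p = 0.0381), which did not pass on the fold scale (0.35, adjusted p = 0.114). All limb values of that region were imputed, so its difference between genotypes is given as a description only.

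Letter matches around the summits, in 300 bp windows on both strands, were as frequent in the members as elsewhere. CAATAAA, a HOX13 motif, was found in 5 of 71 members, 7.04% against 7.53% of all 263923 regions compared. GGAAGT of ETS factors was in 13 members, 18.3% against 18.4%, and AGGNGGC, a part of the CTCF motif, in 14, 19.7% against 20.3%. The E-box CATCTG was in 20, 28.2% against 27.6%, and TAATTA in 10, 14.1% against 13.9%. A match describes the letters only, not binding.

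Outside the domain, regions at 14 genes of the hedgehog pathway (receptors, the transducer Smo, the Gli factors and inhibitors) moved about as often as regions in general. Of 187 tested regions, 46 were higher in FB than limb, 24.6% against 28.7% of all tested regions, and 80 lower, 42.8% against 44.3%. In DFL against PFL 20 were higher and 22 lower, 10.7% and 11.8%. Of all tested regions 24.9% changed there in either direction and 12.4% were lower. In 542 0 were higher, against 0.686% of all tested regions, and 4 lower, 2.14% against 1.2%. The strongest region of Ptch1, the hedgehog receptor, had fold 11.3 to 12.7 in FB against 6.55 to 8.83 in the limb libraries. For Boc, a co-receptor, it was 11.9 to 12.985 in FB against 7.76 to 9.73. For Gli3, the factor that acts mainly as a repressor of hedgehog targets, it was 11.01 to 14.004 in limb and 9.80 to 10.9 in FB. For Dhh it was 19.3 to 21.1 in FB against 15.7 to 18.9 in limb. These sets of values did not overlap. Of the 14 genes, 3 had FB above limb in this way and 1 had limb above FB, and the others did not separate FB from limb.

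At 10 genes that encode regulators of Shh or of its tissues, 10 of 42 tested regions were higher in FB and 16 lower. These were 23.8% and 38.1%, against 28.7% and 44.3% of all tested regions. In DFL against PFL 3 were higher and 1 lower, 7.14% and 2.38%. Of all tested regions 24.9% changed there in either direction and 12.4% were lower. Between genotypes 0 differed, against 0.686% higher and 1.2% lower in 542 of all tested regions. The proteins of Hoxa13 and Hoxd13 bind the ZRS. The strongest region of Hoxa13 had fold 8.80 to 10.1 in DFL and 4.56 to 6.38 in PFL, which did not overlap, though the 1 region of this gene that was tested did not pass limma for DFL against PFL. Hand2 ranged from 6.71 to 7.39 in DFL, 6.19 to 7.70 in PFL and 7.08 to 8.25 in FB, which overlapped. The marker genes are set against 28.7% higher and 44.3% lower in FB of all tested regions. In the forebrain list 6 of 11 tested regions were higher and 1 lower, 54.5% and 9.09%. For limb mesenchyme 4 of 15 were higher and 9 lower, 26.7% and 60%, and for the distal limb list 2 of 2 were lower. For Meis1 8 of 19 were higher and 4 lower, 42.1% and 21.1%. For ectoderm 5 of 17 were higher and 12 lower, 29.4% and 70.6%, and for muscle 1 and 2 of 5, 20% and 40%. For blood it was 0 of 3, and no endothelial region was tested (limma, adjusted p under 0.05).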

How the data were processed

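ATAC-seq of E12.5 mouse DFL, PFL and FB was analysed from 13 lists of called regions, 1 per library. The authors trimmed reads with Cutadapt, mapped them with Bowtie to mm10 or, for 542, to a mutant genome that differs on chromosome 2, removed duplicates with Picard and called regions per library with MACS2, extending each cut to 200 bp with a genome size of 1.87e+09. The lists as deposited by the authors give the fold over local background (a linear ratio), the −log10 p-value, the −log10 q-value, a score derived from the q-value and, as another number, the summit offset in each region. Every list as deposited by the authors holds regions past the caller's own threshold only.

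Regions overlapping by at least 1 bp were joined over libraries, and chromosome 2 from 75 Mb was left out because the genotypes differ there, leaving 263923 regions in the comparisons. Of the listed genes on chromosome 2, Meis2, Pax6 and Alx4 had no tested region, though the folds of Meis2 and Pax6 entered the marker sums. A joined region was a member where the strongest summit of at least 1 library's region lay in the window; the last one, at the Mnx1 start, reaches past its edge. Just inside the window lay chr5:28360746-28361230, with fold 3.27 to 5.85, and just outside lay chr5:28351792-28352488, with fold 2.68 to 7.79, and chr5:29485052-29485944, with fold 2.55 to 6.23. Tags at summits and library totals were worked out from fold, p and q, with a tolerance of 0.001, and do not enter the main fit. Each library's log2 fold was centred on the 27045 regions called in all 12 libraries, uncalled libraries were set to their lowest called fold, and 6 group means were fitted with limma 3.58.1 in R 4.3.3 (trend, Benjamini-Hochberg over all tested regions, threshold 0.05). Calls were compared in the 50000 strongest regions of each library with two-sided Fisher's exact tests, and numbers of regions with exact permutation tests in scipy 1.17.1. The limma code was tested on simulated data. Gene models were GENCODE M21, and enhancers, binding sites and introns of Lmbr1 (transcript Lmbr1-201) came from RefSeq and GENCODE on GRCm38.

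Replicates were pools of embryos, so p-values measure the spread between pools. Replicate numbers gave no sign of pairing the samples. Regions were named by a rule: gene starts, regions in Shh and in intron 5 of Lmbr1, the strongest per tissue in wt, those with the smallest adjusted p, those called in 1 tissue only, and the 3 most like the ZRS. The other RefSeq enhancers and the regions at 357.6, 392.9 and 410.2 kb were added to these with their values in view. The members, the lists of 14 pathway genes and 10 regulators, the cell type markers and the 5 motifs were chosen with earlier results of these data known. Alternatives were a stricter list, other thresholds, quantile and tag-based scaling, other values for uncalled libraries, a replicate block, the additional library, and each library left out in turn.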

Additional observations from a re-analysis of the deposited data

Results flagged for a closer look

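In the region at 786.8 kb, in Lmbr1, the FB fold was 5.50, 5.50 and 5.53 in 3 libraries and 5.04 in 542 FB replicate 2. The last lies apart from the others, with a gap of 0.933 of the group's range. Of 45 groups of 4 libraries tested, this was the 1 past the limit, and chance alone sets apart about 1 in 20 such groups.

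The additional wt DFL library, outside all main comparisons, called 4 members that none of the 4 DFL libraries called. These were the region over an exon of Rbm33 at 99.0 kb, with fold 6.64, another region inside Rbm33 with fold 2.89, the region at 54.1 kb with fold 4.07 and a further region with fold 3.53. It was the deepest library, with 78.0 M tags, and the part of depth in these calls was not tested.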

How the results depend on the processing

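For the 13 results that answer a comparison, 237 alternatives were computed, of which 211 stayed on the same side of the threshold or, for counts, within 1.5 times. Of 1440 alternatives for single named regions, 1404 stayed on the same side, 17 fell below the threshold and 19 rose past it. No single difference past the threshold changed sign, but differences that passed in neither fit did, or came to 0: 14 of 129 for the results that answer a comparison and 76 of the 1440. The first were the domain's DFL difference, up to 0.119 per 10000, the ZRS between DFL and PFL, up to 0.0468, and the ZRS between 542 and wt, up to 0.112 on the log2 scale.

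The FB excess in domain regions per 10000 was 0.525 in the 50000 strongest, 0.399 at a fold of at least 5 and 0.455 at −log10 q of at least 10, none past the threshold, and 0.872 to 1.1605 with each library left out. The DFL difference was -0.934 at a fold of at least 5 and -0.732 at −log10 q of at least 10, both past the threshold, and -0.198 to 0.119 with each library left out. For 542 against wt it was -0.344 to -0.0266 with each left out.

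The limma counts of members were 23 for FB against limb, 4 for DFL against PFL and 1 for 542 against wt. Among regions called in all 12 libraries they were 1, 1 and 0, since only 6 members remain there. With each library left out they were 14 to 26, 4 to 7 and 0 to 2, the low FB counts arising as members called only in FB then miss the filter of 4 libraries. For 542 against wt the count was 2 with quantile scaling, 2 with uncalled libraries at a fold of 1 and 0 with the additional library. With tags per M it stayed at 1 but turned from lower to higher and to another member, the region 106.3 kb from the Shh start beyond its 3′ end (0.47, limma adjusted p = 0.0381). All limb values of that region were imputed. By calls, FB against limb gave 5 members, 9 in all deposited regions and 0 in the 20000 strongest, and DFL against PFL gave 1, then 0 and 0, with 1 to 2 when a library was left out.

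A fit with the replicate number as a block left the counts at 23, 4 and 1. The 15 correlations of same-numbered samples were -0.0378 to 0.0159, none over 0.1, so they gave no sign of pairing. They cannot show whether same-numbered samples shared embryos. Depth limits the weakest calls: no region of a library rested on fewer than 12 tags, and an uncalled region may be open below that.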
